A study of Mus musculus with 16 samples.

Results

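The mitochondrial ribosomal proteins were followed in the ventricles of mice with pressure overload and with the transcriptional kinase inhibitor THZ1. Members were the genes whose symbol starts with Mrpl or Mrps followed by a digit and whose normalized count reached 10 in at least 4 of the 16 libraries. Of 22372 genes in the table, 77 had such a symbol and 76 passed. The pseudogene Mrps36-ps1, with a mean of 0.17 normalized counts, did not pass, and the lowest mean of a gene that passed was 209.6, that of Mrps33. All C57BL/6J mice underwent a thoracotomy at 10 to 12 weeks of age. Transverse aortic constriction (TAC), a suture that narrows the aortic arch and loads the left ventricle, was placed in the TAC groups and left out in the sham groups. THZ1, a covalent inhibitor of CDK7, CDK12 and CDK13, was then injected into the peritoneum at 10 mg/kg b.i.d. from postoperative day 1 to day 60, and the vehicle groups received vehicle. This gave 4 groups of 4 libraries each, which are named TAC-Veh and TAC-THZ1 after constriction and Sham-Veh and Sham-THZ1 after sham surgery. The labels do not state that each library came from its own animal, so p-values measure the spread between libraries. That spread was estimated once per gene over all 4 groups, so it is not the spread within the groups compared alone. RNA was made from a piece of whole ventricle, in which fewer cells of a type and less RNA per cell cannot be told apart.

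Mitochondrial ribosomes, or mitoribosomes, translate the mRNAs of the mitochondrial genome, which encode core subunits of the respiratory chain and of ATP synthase. Their rRNAs come from mitochondrial DNA, but every protein of the small (Mrps) and large (Mrpl) subunit is encoded in the nucleus, made on cytosolic ribosomes and imported. Part of the proteins descend from bacterial ribosomal proteins and part were added in mitochondria. Cardiomyocytes, which are densely packed with mitochondria, depend on this machinery, and recessive mutations in several of its genes cause cardiomyopathy in infancy.

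Recovered depth was 21.4 to 35.8 M reads per library. Every member was measured in every library, and the lowest value of any member in any library was 179.8 normalized counts. Mean levels over the 16 libraries had a median of 905.8 normalized counts and reached 5136. Per kilobase of exon, the highest mean levels were those of Mrpl42, a mitochondria-specific large-subunit protein, at 7711 normalized counts per kb, Mrps23, a mitochondria-specific small-subunit protein, at 2368, and Mrpl12, the stalk protein that recruits translation factors, at 2112. The lowest were those of Mrps10 at 41.5, Mrps5 at 104.9 and Mrps25 at 114.5 normalized counts per kb, a range of 185.8-fold from lowest to highest. These levels divide by the full annotated exon length, which reaches 8079 bases for Mrps10 against 1113 bases for its longest coding transcript. The 3 members with the most normalized counts, Mrpl42, Mrps23 and Mrpl12, together held at least 13.6% of the family's summed count in every library.

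The summed level of the family varied little among sham hearts, fell into separate ranges among TAC-Veh hearts and was highest in TAC-THZ1 hearts. Summed over the 76 members and set against the Sham-Veh mean, the 4 Sham-Veh libraries lay at 99.3%, 99.3%, 102.0% and 99.4%. The 4 Sham-THZ1 libraries lay at 100.6%, 100.3%, 101.7% and 98.5%, inside the Sham-Veh range apart from the last. The 4 TAC-Veh libraries lay at 109.4%, 85.5%, 111.9% and 86.9%, so replicates 1 and 3 were above every sham library and replicates 2 and 4 below every sham library. The 4 TAC-THZ1 libraries lay at 117.1%, 122.2%, 118.1% and 118.6%, above each of the 12 others. As group means this was 100.3% ± 1.3 for Sham-THZ1, 98.4% ± 14.2 for TAC-Veh and 119.0% ± 2.2 for TAC-THZ1 (SD, n = 4). These sums are not corrected for transcript length. Genes with a longest transcript of at most 2000 bases had a median log2 fold change of 0.19 in TAC-THZ1 against Sham-THZ1. No TAC-Veh library lay near the TAC-Veh mean. TAC-Veh replicates 2 and 4 were also the libraries with the smallest share of reads on mitochondrial genes, 33.2% and 34.5%, against 36.7% to 44.7% in the others, and replicate 2 had the lowest sum of cardiomyocyte markers, at 53.2% of the Sham-Veh mean. The part of these in the split was not tested.

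**Figure D1:**
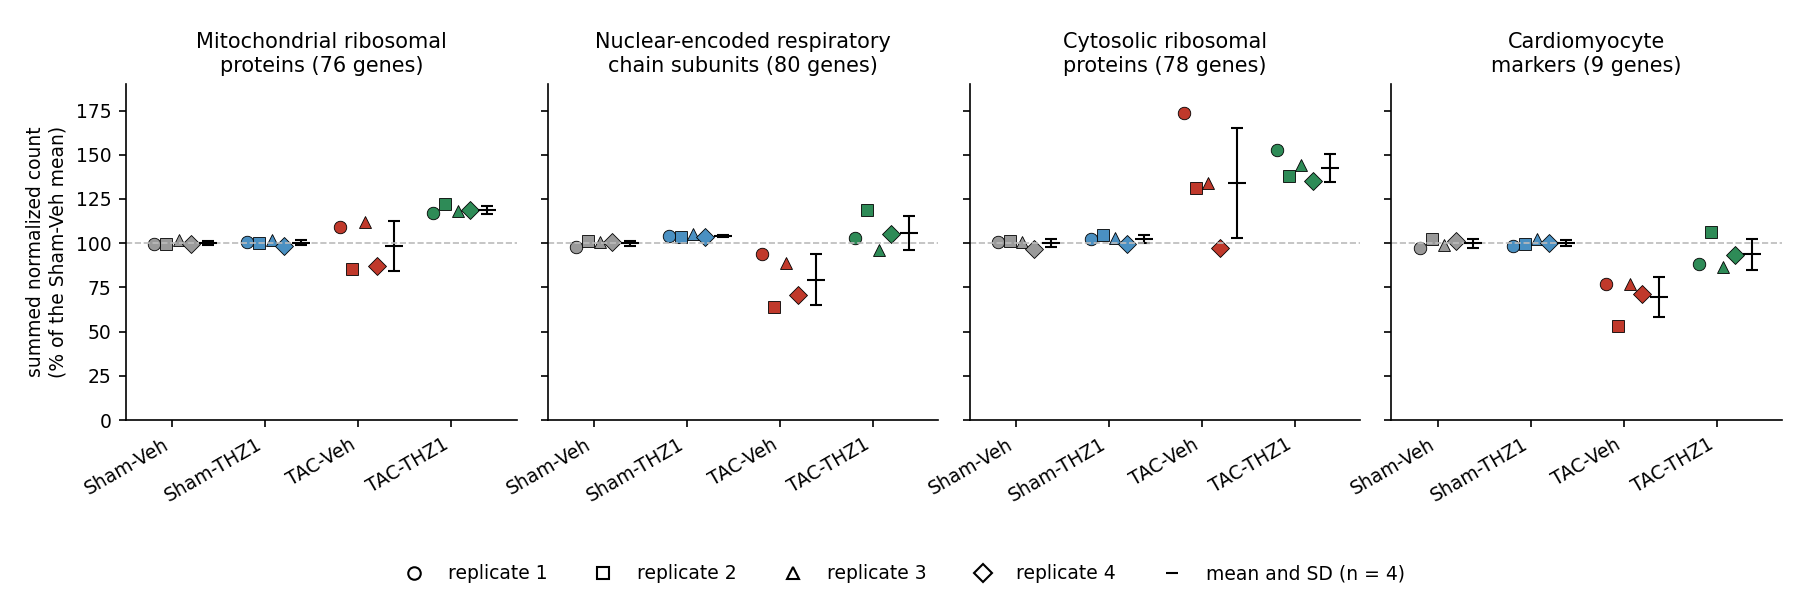
Summed normalized count per library, as a percentage of the Sham-Veh mean (y axis, from 0), for 4 gene lists in the 4 groups. Symbols are libraries by replicate number and the black bars to the right of each group are mean and SD (n = 4). The mitochondrial ribosomal proteins reach 117.1% to 122.2% in TAC-THZ1, while TAC-Veh spans 85.5% to 111.9%. The sums are not corrected for transcript length.

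TAC alone moved members in both directions. In TAC-Veh against Sham-Veh, 9 of 76 members rose and 11 fell at an adjusted p under 0.05 (limma across all 13331 genes tested, Benjamini-Hochberg adjustment), where 21.4% of all genes tested rose and 23.6% fell. The members called were thus 11.8% up and 14.5% down, a lower share in each direction than among all genes. Among the 3502 genes tested whose longest transcript has at most 2000 bases, a group that holds 57 of the members, 29.3% rose and 13.7% fell. With the trend in transcript length removed, as given below, members that fell made up a larger share than among all genes. The median log2 fold change of the 76 members was -0.02, and it came out at 0.05 when libraries were scaled to the reads outside mitochondrial genes, where 13 rose and 8 fell. Log2 fold changes ran from -0.56 to 0.47, with standard errors of 0.06 to 0.14. All TAC-Veh libraries were above all Sham-Veh libraries for 7 members and below them for 8, against 18.2% and 19.1% of all genes tested. The number of members that fell depended on single TAC-Veh libraries, being 17 without replicate 1, 5 without replicate 2 and 21 without replicate 3, and the number that rose was 14 without replicate 4.

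Mrpl39, a mitochondria-specific large-subunit protein that resembles part of an aminoacyl-tRNA synthetase, fell the most. The gene lies at chr16:84717821-84735987 on the minus strand of build NCBIM37 (mm9). Its normalized counts were 1575, 1833, 1811 and 1665 in Sham-Veh and 1187, 1037, 1368 and 1079 in TAC-Veh. Every TAC-Veh library was below every Sham-Veh library, and the log2 fold change was -0.56 (SE 0.08, limma adjusted p = 3.08e-05). Mrps35, a mitochondria-specific small-subunit protein encoded at chr6:146991286-147019425, gave 1471, 1587, 1647 and 1500 normalized counts in Sham-Veh and 1197, 881, 1333 and 977 in TAC-Veh. These groups did not overlap either, and the log2 fold change was -0.52 (SE 0.10, limma adjusted p = 0.000747).

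Mrpl47, the counterpart of bacterial L29 at the rim of the exit tunnel, is encoded at chr3:32624319-32636069. Its normalized counts of 665, 661, 735 and 627 in Sham-Veh stood against 561, 464, 614 and 420 in TAC-Veh, a log2 fold change of -0.40 (limma adjusted p = 0.00557). Mrpl45, which sits at the exit tunnel and faces the inner membrane, went from 1458, 1431, 1518 and 1490 to 1242, 1024, 1392 and 1118, a log2 fold change of -0.31 (limma adjusted p = 0.0156). For both genes the groups did not overlap. Mrpl37, a mitochondria-specific large-subunit protein, and Mrpl1, the protein of the L1 stalk, fell by 0.33 and 0.32 on the log2 scale (limma adjusted p = 0.0041 and 0.0177), again without overlap. The other members that fell were Mrpl28, Mrpl50, Mrps31, Mrps30 and Mrps5, by 0.22 to 0.30 on the log2 scale. The calls of Mrpl45 (-0.24), Mrpl1 (-0.27), Mrps30 (-0.17) and Mrps5 (-0.16) were lost without TAC-Veh replicate 2, and that of Mrpl1 also without TAC-Veh replicate 4 (-0.24) or Sham-Veh replicate 4 (-0.30) and that of Mrps30 without Sham-Veh replicate 2 (-0.20) or 4 (-0.19). Mrps5 and Mrps30 were among those that lost the call when libraries were scaled to the reads outside mitochondrial genes.

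Mrpl20, the homologue of a bacterial protein needed early in large-subunit assembly, rose the most. It lies at chr4:155177645-155183885 and gave 734, 711, 706 and 676 normalized counts in Sham-Veh and 1205, 922, 1072 and 779 in TAC-Veh. The groups were apart, with a log2 fold change of 0.47 (SE 0.10, limma adjusted p = 0.00121). Mrpl54, a mitochondria-specific large-subunit protein, went from 839, 861, 779 and 844 to 1337, 1008, 1260 and 957 normalized counts, a log2 fold change of 0.44 (limma adjusted p = 0.00129). Mrps18b, one of the 3 mitochondrial relatives of bacterial S18, went from 484, 424, 488 and 422 to 680, 603, 643 and 520, a log2 fold change of 0.42 (limma adjusted p = 0.000532). For these 3 genes each TAC-Veh library was above each Sham-Veh library, although replicate 4 was the lowest TAC-Veh library for each.

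Mrpl33, a homologue of bacterial L33, and Mrpl52, a mitochondria-specific large-subunit protein, had log2 fold changes of 0.43 and 0.43 (limma adjusted p = 0.00984 and 0.00836). Mrpl33 gave 1197, 1159, 1232 and 1163 normalized counts in Sham-Veh and 2226, 1525, 1604 and 1199 in TAC-Veh, so replicate 4 lay inside the sham range. Mrpl52 gave 503, 485, 531 and 469 against 892, 654, 679 and 501, with the same library overlapping. Mrps10, a homologue of bacterial S10, and Mrps23 rose by 0.37 and 0.37 on the log2 scale (limma adjusted p = 0.00339 and 0.00127), both with no overlap between groups. Mrpl53 and Mrpl13 completed the 9 that rose.

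**Figure D2:**
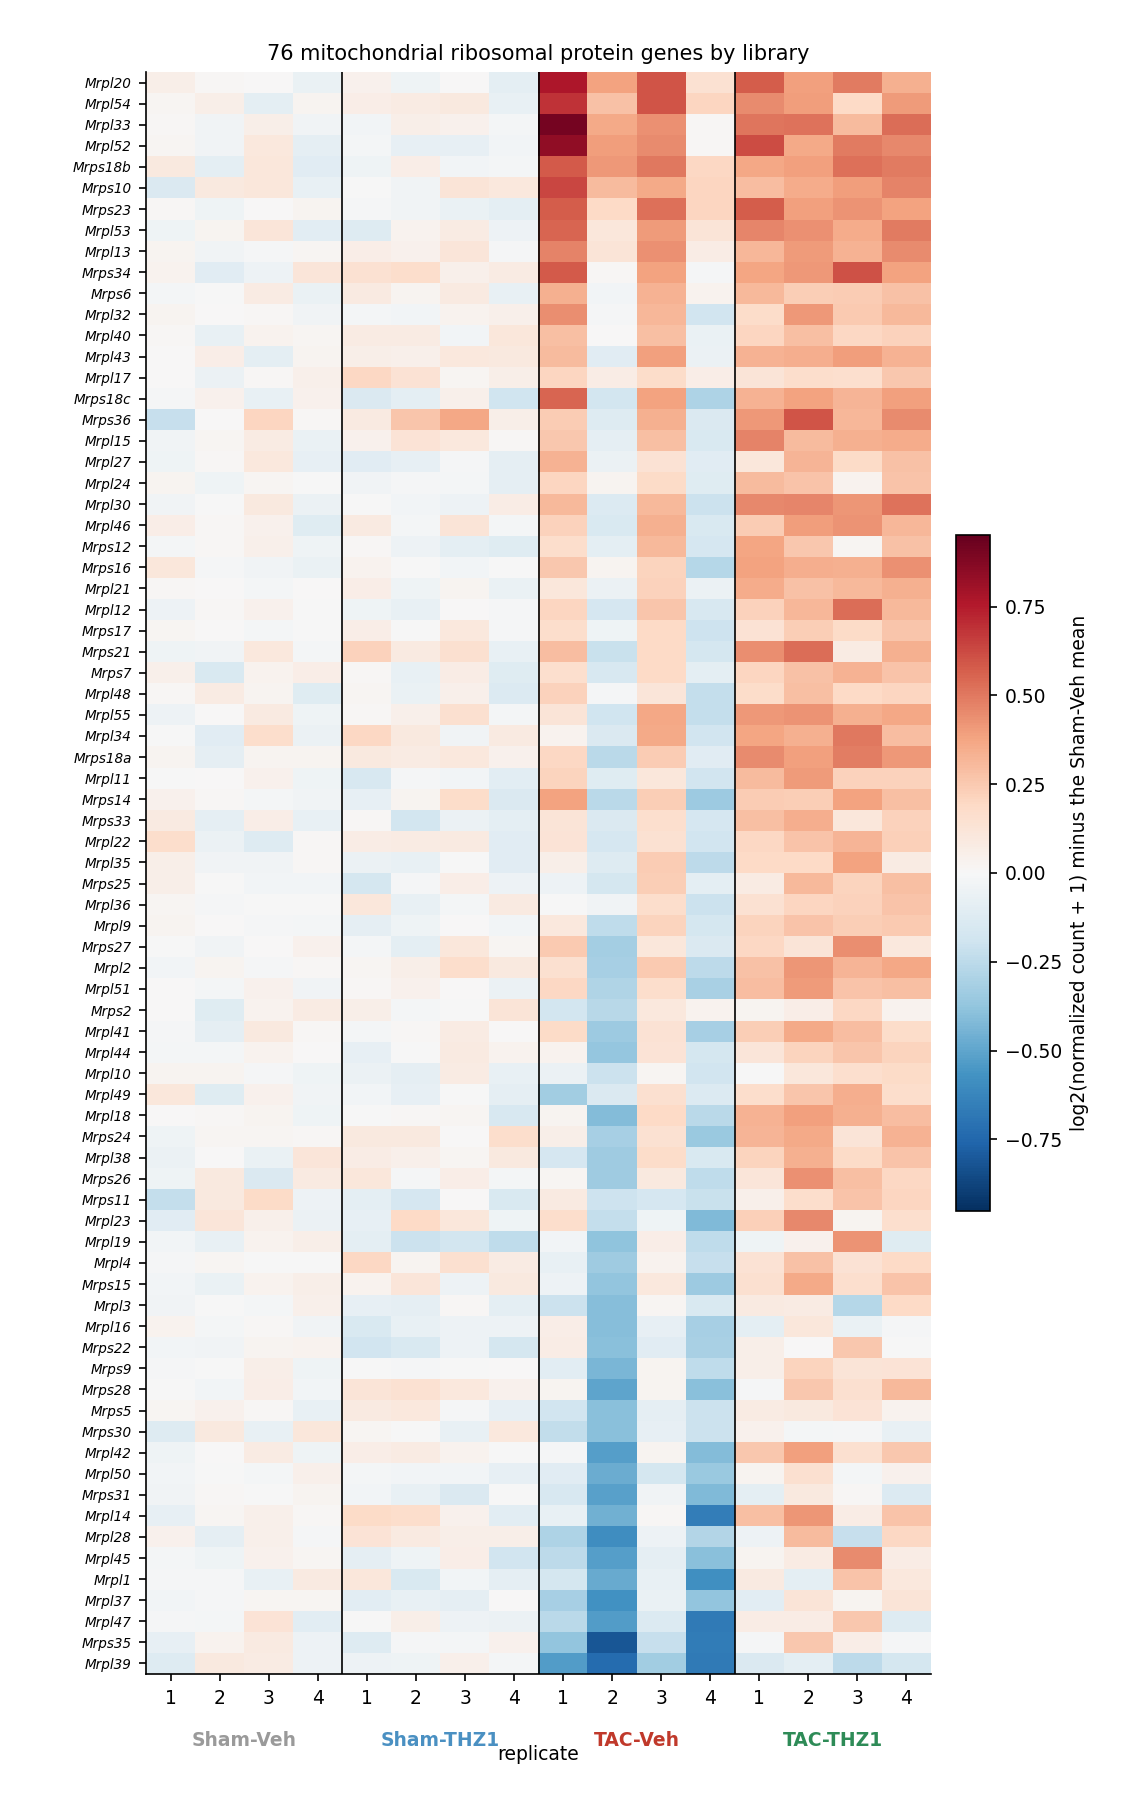
Each line of the map is 1 of the 76 members, ordered from top to bottom by falling log2 fold change in TAC-Veh against Sham-Veh, and each column is 1 library; color is log2(normalized count + 1) minus the Sham-Veh mean of that gene. From top to bottom the TAC-Veh columns turn from red (above Sham-Veh) to blue (below), replicates 2 and 4 are bluer than replicates 1 and 3, and TAC-THZ1 is red for most members.

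With THZ1 in TAC hearts every member called went up. In TAC-THZ1 against TAC-Veh, 47 of 76 members rose and 0 fell (limma; 0 at an unadjusted p under 0.05 as well, and 0 by DESeq2 and by edgeR on recovered reads), where 15.1% of all genes tested rose and 14.2% fell. Among the same 3502 genes with short transcripts, 21.6% rose and 8.68% fell. The members' median log2 fold change was 0.27, or 1.21-fold, beside 0.01 over all genes tested and 0.10 over those with short transcripts. The log2 fold change was above 0 for 74 members and ranged from -0.08 to 0.59. For 26 members all TAC-THZ1 libraries were above all TAC-Veh libraries and for 0 below, where 9.53% and 10.5% of all genes tested were so. The count was 27 without TAC-Veh replicate 2, and 8 when the 2 groups were fitted without the sham libraries, with the same fold changes. The share of all genes called in that fit of 2 groups is not given here, so its 8 members have no background beside them. The adjusted p-values of the members named below for THZ1 in TAC come from the main fit. The main fit shares its estimate of spread over the 4 groups. The summed level had an SD of 14.2% of the Sham-Veh mean in TAC-Veh and 1.3% in Sham-Veh. The part of this in the lower count was not tested.

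Mrps35 had the largest rise. Its 4 TAC-THZ1 libraries gave 1540, 1847, 1622 and 1540 normalized counts, all above the TAC-Veh libraries given above, with a log2 fold change of 0.59 (SE 0.10, limma adjusted p = 0.000735). Mrpl14, the homologue of bacterial L14 at the interface between the subunits, encoded at chr17:45823271-45835444, gave 790, 605, 834 and 525 normalized counts in TAC-Veh and 1013, 1111, 871 and 1001 in TAC-THZ1, a log2 fold change of 0.56 (SE 0.12, limma adjusted p = 0.00312). Mrpl42, the member with the most reads, gave 4970, 3494, 5101 and 3773 against 5972, 6580, 5564 and 5991, a log2 fold change of 0.49 (limma adjusted p = 0.00197). No library of either group overlapped for these 3 genes.

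Mrpl47 reached 704, 705, 803 and 617 normalized counts in TAC-THZ1 and Mrpl45 reached 1498, 1556, 2008 and 1546, each with a log2 fold change of 0.47 over TAC-Veh (limma adjusted p = 0.00373 and 0.00246). Mrpl18, the homologue of L18, which binds 5S rRNA in bacteria, went from 2164, 1592, 2414 and 1772 to 2668, 2776, 2676 and 2603, a log2 fold change of 0.45 (limma adjusted p = 0.00261). In these 3 genes too the groups were apart. The comparison with sham and that with THZ1 share the TAC-Veh libraries, which are the upper term of the first and the base of the second, so their values are given side by side only. The 11 members that fell with TAC had log2 fold changes of 0.21 (Mrps30) to 0.59 (Mrps35) with THZ1 in TAC, and the 9 that rose with TAC had -0.08 (Mrpl54) to 0.14 (Mrpl53). Mrpl20, for example, stood at 1051, 924, 993 and 893 normalized counts in TAC-THZ1, a log2 fold change of -0.03 from TAC-Veh (limma adjusted p = 0.864), and Mrps18b at 585, 595, 651 and 637, a log2 fold change of 0.02 (limma adjusted p = 0.887).

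**Figure D3:**
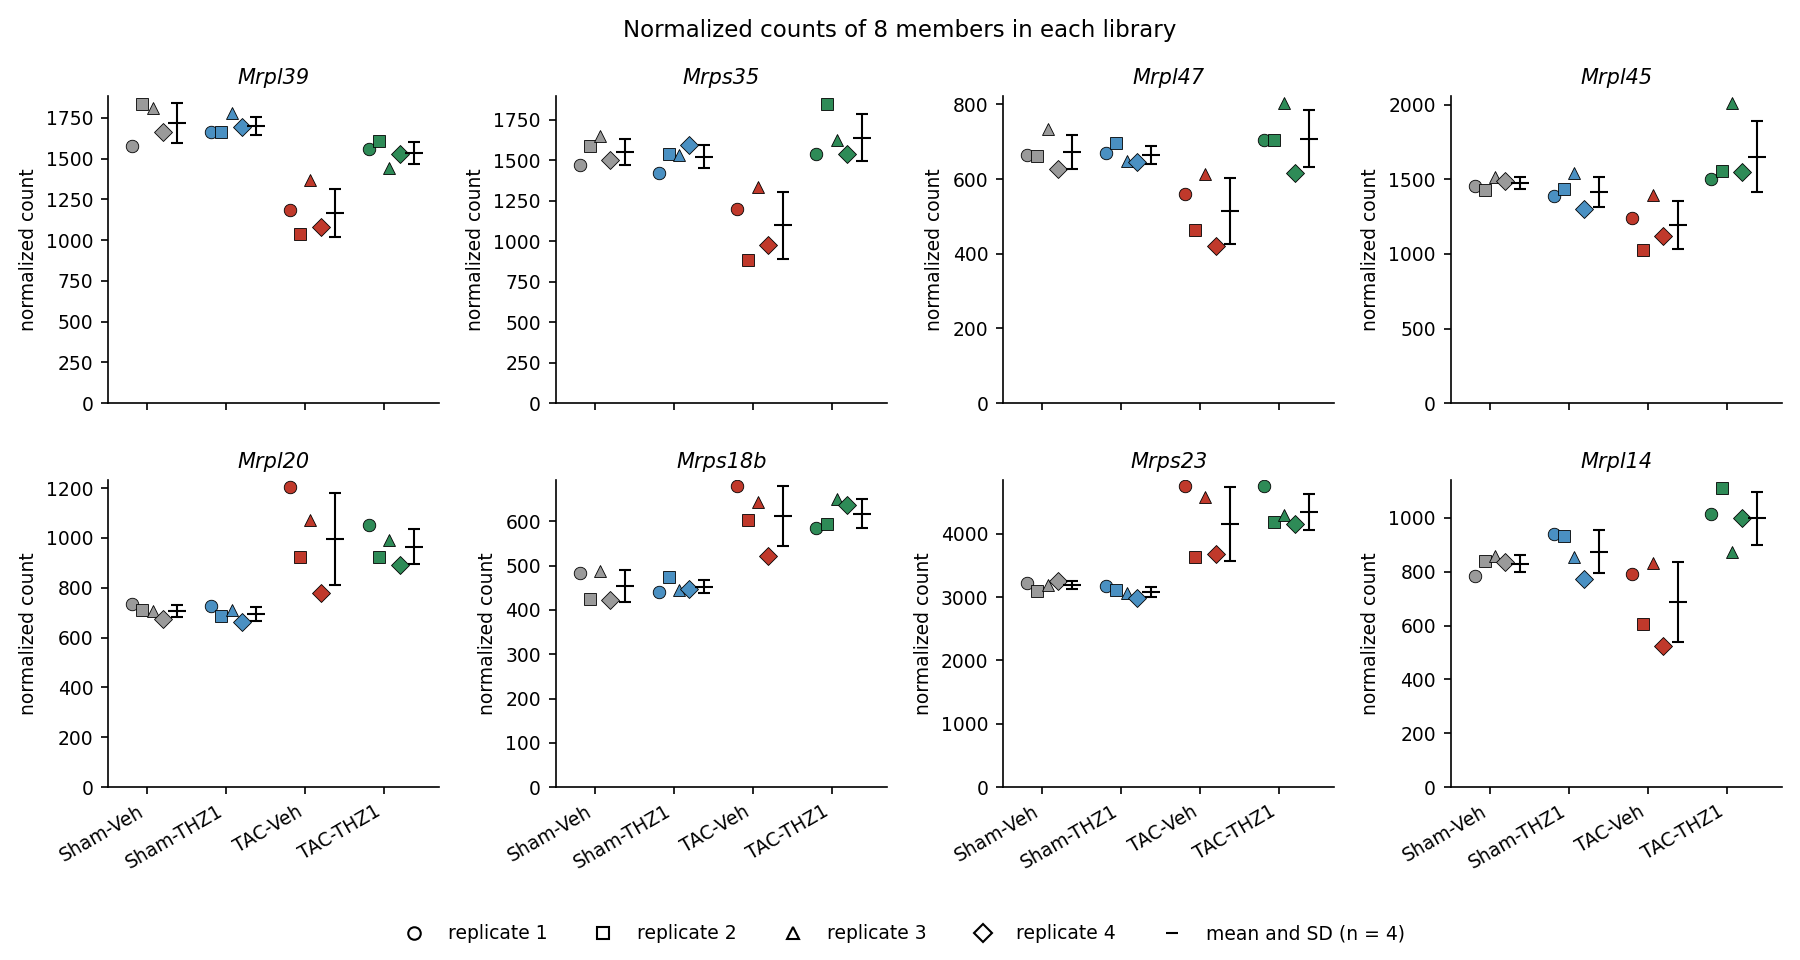
Normalized count (y axes, from 0) of 8 members in each library of the 4 groups, with symbols for the replicate number and mean and SD (n = 4) in black. Mrpl39, Mrps35, Mrpl47 and Mrpl45 (top row) had their lowest means in TAC-Veh. Mrpl20, Mrps18b and Mrps23 (bottom row) were higher in both TAC groups than in sham, and Mrpl14 had its highest mean in TAC-THZ1.

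In sham hearts THZ1 moved no member past the test. In Sham-THZ1 against Sham-Veh, 0 members rose and 0 fell by limma, 0 had an unadjusted p under 0.05, and DESeq2 and edgeR on recovered reads also called 0. Of all genes tested, 0.0225% rose and 0.045% fell. The members' median log2 fold change was 0.00 and the range -0.18 to 0.19. The members with the smallest p were Mrpl17, with a log2 fold change of 0.10 (limma adjusted p = 0.799), Mrpl19 with -0.18 (limma adjusted p = 0.808) and Mrps36 with 0.19 (limma adjusted p = 0.81). Mrps36 is by symbol a ribosomal protein and by function a subunit of the 2-oxoglutarate dehydrogenase complex. All Sham-THZ1 libraries were above all Sham-Veh libraries for 3 members and below them for 3, against 6.29% and 5.05% of all genes tested. The spread behind these p-values was shared with the TAC libraries. The summed level had an SD of 14.2% of the Sham-Veh mean in TAC-Veh, against 1.3% in Sham-Veh and 1.3% in Sham-THZ1. The 0 calls therefore cannot show that THZ1 left the members unchanged in sham hearts.

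For 8 members THZ1 had another effect after TAC than after sham surgery. This interaction, the effect in TAC minus the effect in sham, was above 0 for those 8 and past the test in the other direction for 0 (limma; 0 at an unadjusted p under 0.05 in that direction, and 0 by DESeq2 and edgeR), where 4.4% of all genes tested were called above 0 and 5.62% below. The members' median was 0.28 on the log2 scale. It was largest for Mrps35, at 0.62 (SE 0.15, limma adjusted p = 0.0165), followed by Mrpl45 at 0.53 (SE 0.14, limma adjusted p = 0.0259). Mrpl39 had 0.42 (SE 0.11, limma adjusted p = 0.027), and the others called were Mrpl18, Mrpl47, Mrpl37, Mrpl49 and Mrpl50. With 1 library left out the call of Mrps35 was kept in all 16 fits, that of Mrpl45 was lost in 4 and that of Mrpl39 in 7. The calls of Mrpl37, Mrpl18 and Mrpl47 were lost in 8, 9 and 13 of these fits. At an unadjusted p under 0.05 there were 39. The count depended on single libraries and ran from 1 without Sham-Veh replicate 3 or without Sham-THZ1 replicate 1 to 36 without TAC-Veh replicate 3. It was 2 without Sham-Veh replicate 2, Sham-THZ1 replicates 2 or 4, or TAC-THZ1 replicate 2, 3 without Sham-Veh replicate 4 or TAC-Veh replicate 2, 5 without Sham-THZ1 replicate 3 and 23 without TAC-Veh replicate 1.

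Compared with sham hearts under the same drug, TAC-THZ1 hearts had more of the family's mRNA, but transcript length moved with this difference. In TAC-THZ1 against Sham-THZ1, 36 of 76 members rose and 0 fell (limma; 0 fell at an unadjusted p under 0.05, and 0 by DESeq2 and edgeR), where 11.4% of all genes tested rose and 12.8% fell. The median log2 fold change was 0.25. Each of the 4 TAC-THZ1 libraries was above all 8 sham libraries for 48 members, against 11.2% of all genes tested. Among genes with a longest transcript of at most 2000 bases, however, 26.4% rose and 2% fell, and their median log2 fold change was 0.19. Across all 13331 genes tested, the log2 fold change in this comparison fell with transcript length (Spearman rho = -0.45), and rho was -0.20 for TAC-Veh against Sham-Veh and -0.19 for TAC-THZ1 against TAC-Veh. These are descriptions across genes, which are not independent replicates. Members have short transcripts, with a median of 1213 bases against 3049 for all genes tested.

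When a smooth trend in transcript length was taken out of each library, 10 members were higher in TAC-THZ1 than in Sham-THZ1 and 0 lower, where 6.71% of all genes tested were higher and 7.76% lower, and the members' median was 0.07. In TAC-THZ1 against TAC-Veh the same correction left 33 members higher and 2 lower (Mrpl20 and Mrpl54), where 15.4% and 14.6% of all genes tested were called, and a median of 0.19. In TAC-Veh against Sham-Veh it gave 9 higher and 27 lower, where 21.8% and 22.5% of all genes tested were called, and a median of -0.12. What the length trend comes from was not tested. The count of members higher than in Sham-THZ1 was also 10 without TAC-THZ1 replicates 1 and 3, and it was 21, 22 and 18 without Sham-THZ1 replicates 1, 2 and 4 and 22 without TAC-THZ1 replicate 1.

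**Figure D4:**
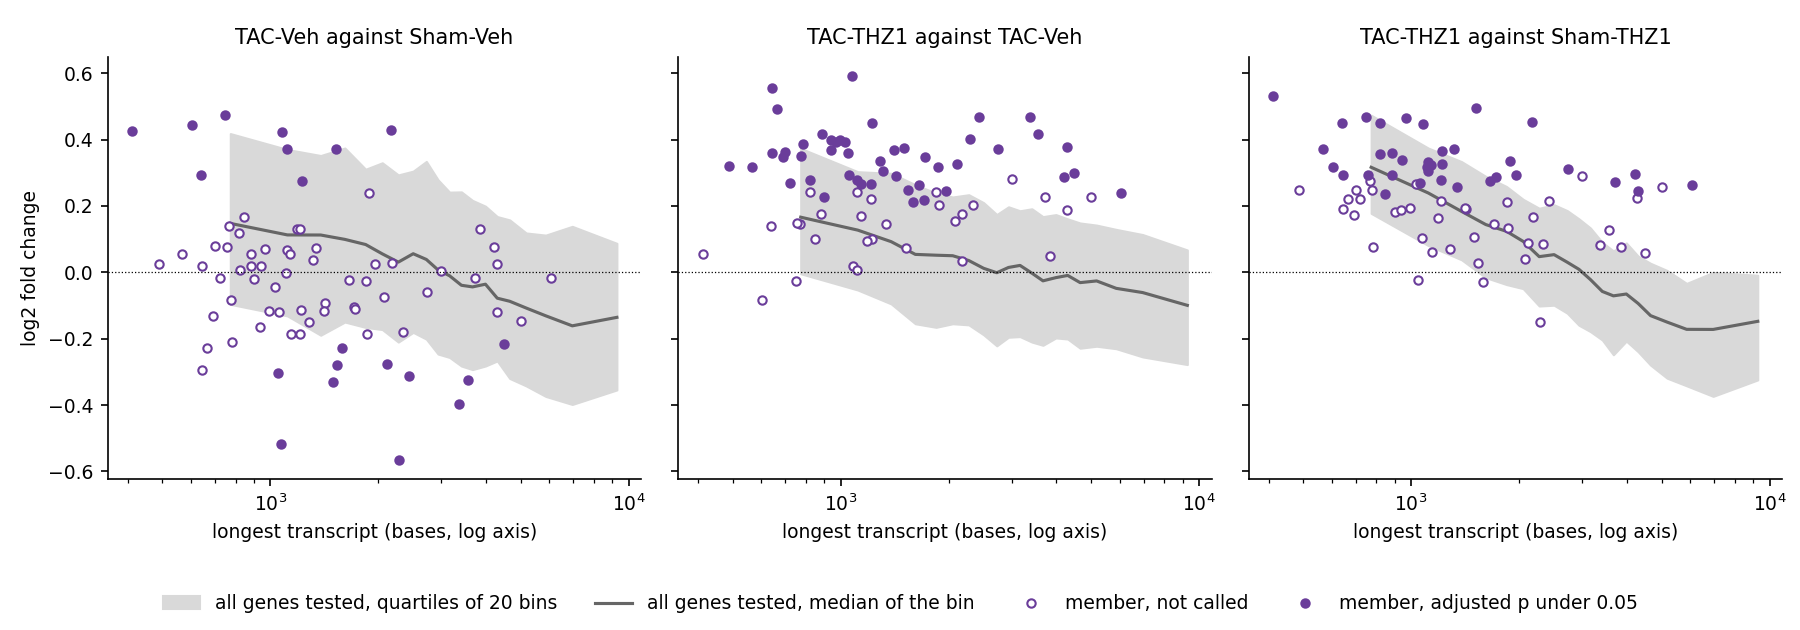
Log2 fold change (y axis) against the length of the longest transcript (x axis, log scale) for the 76 members (points, filled where the adjusted p was under 0.05) in 3 comparisons, over the median (line) and quartiles (gray) of all genes tested in 20 bins of length. Short transcripts shift upward in TAC-THZ1 against Sham-THZ1, where many members lie within the gray band, and most members lie above the line in TAC-THZ1 against TAC-Veh.

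Mrps23 had the smallest p of the family against Sham-THZ1. It is encoded at chr11:88017890-88025009 and gave 3169, 3111, 3060 and 2989 normalized counts in Sham-THZ1 and 4759, 4183, 4297 and 4148 in TAC-THZ1, with a log2 fold change of 0.49 (limma adjusted p = 0.00102). This was one of the 10 members called with the length trend removed, at 0.34 (limma adjusted p = 0.00253). Mrps18b went from 441, 474, 445 and 448 to the TAC-THZ1 values above, a log2 fold change of 0.45 (limma adjusted p = 0.00196, and 0.0376 with the length trend removed). Mrpl21, a homologue of bacterial L21, went from 881, 818, 857 and 808 to 1076, 1025, 1044 and 1066, a log2 fold change of 0.32 (limma adjusted p = 0.00261), a call that was lost with the length trend removed (adjusted p = 0.20). In each of the 3 genes every TAC-THZ1 library lay above every Sham-THZ1 library. All 9 members that rose with TAC were called higher against Sham-THZ1 as well, but with the length trend removed only 3 of them were (Mrpl33, Mrps18b and Mrps23), and Mrpl54 turned to -0.03 on the log2 scale.

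Both subunits had members in each direction with TAC and members that rose with THZ1. Of 49 large-subunit proteins, counting Mrps18a and Mrps30 where their proteins are found, 6 rose and 8 fell with TAC. Of 26 small-subunit proteins 3 rose and 3 fell, beside 21.4% and 23.6% of all genes tested. With THZ1 in TAC hearts, 32 of 49 and 14 of 26 rose, with median log2 fold changes of 0.28 and 0.25. In that comparison 15.1% of all genes tested rose, and 21.6% of those with a longest transcript of at most 2000 bases. Summed levels in TAC-THZ1, not corrected for transcript length, were 118.8% ± 2.5 of Sham-Veh for the large and 119.3% ± 1.9 for the small subunit (SD, n = 4). Of the 47 proteins with a bacterial counterpart 5 rose and 4 fell with TAC, and of the 28 found only in mitochondria 4 rose and 7 fell, beside 21.4% and 23.6% of all genes tested. The difference between classes was not tested.

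The S18 family was called differently from gene to gene, and the differences between its genes were not tested. These are the paralogs Mrps18a, whose protein sits in the large subunit, and Mrps18b and Mrps18c, whose proteins occupy different places in the small subunit. Mrps18a gave 1146, 1063, 1148 and 1148 normalized counts in Sham-Veh, 1292, 942, 1330 and 1042 in TAC-Veh, and 1535, 1478, 1579 and 1498 in TAC-THZ1. It did not pass the test with TAC (log2 fold change 0.02, limma adjusted p = 0.884) and rose with THZ1 in TAC (0.42, limma adjusted p = 0.00233). Mrps18c gave 452, 470, 435 and 470 in Sham-Veh and 669, 405, 595 and 373 in TAC-Veh, with a log2 fold change of 0.12 (SE 0.14, limma adjusted p = 0.511). Mrps18b, as above, rose with TAC and had a log2 fold change of 0.02 with THZ1 in TAC. Against Sham-THZ1 all 3 were called higher in TAC-THZ1, with log2 fold changes of 0.36, 0.45 and 0.45, but with the length trend removed 1 of the 3 calls, that of Mrps18b, was kept and the median was 0.16. The call of Mrps18c was lost in 5 of the 16 fits that left out 1 library, those without Sham-THZ1 replicates 1, 2 or 4 or TAC-THZ1 replicates 1 or 4.

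Among the 4 subunits with cardiomyopathy in recessive human disease, Mrpl44 and Mrps22 rose with THZ1 in TAC. In that comparison 61.8% of the 76 members and 15.1% of all genes tested rose. Mrpl44, a large-subunit protein with a ribonuclease III-like fold, had a log2 fold change of -0.09 with TAC (limma adjusted p = 0.391) and 0.29 with THZ1 in TAC (limma adjusted p = 0.0156). Mrps22, a mitochondria-specific small-subunit protein, had -0.19 with TAC (limma adjusted p = 0.101) and 0.27 with THZ1 in TAC (limma adjusted p = 0.0342). The THZ1 call of Mrps22 was lost with the length trend removed (adjusted p = 0.119) and in 4 of 16 fits that left out 1 library, those without TAC-Veh replicates 2 or 4 or TAC-THZ1 replicates 1 or 3. That of Mrpl44 was kept with the length trend removed (adjusted p = 0.042) and lost in 1 of 16 such fits, without TAC-Veh replicate 2. Mrpl3, the homologue of bacterial L3, and Mrps14, the homologue of bacterial S14, gave -0.18 and 0.00 on the log2 scale with TAC (limma adjusted p = 0.117 and 0.982) and of 0.20 and 0.28 with THZ1 in TAC (limma adjusted p = 0.105 and 0.097). Of the proteins placed elsewhere than their symbol says, Mrps30 fell with TAC by 0.23 on the log2 scale (limma adjusted p = 0.0172), and Mrps36 had a log2 fold change of 0.08 with TAC (limma adjusted p = 0.62) and 0.36 with THZ1 in TAC (limma adjusted p = 0.0317). The THZ1 call of Mrps36 was lost in 5 of 16 fits that left out 1 library, those without TAC-Veh replicates 2 or 4 or TAC-THZ1 replicates 1, 2 or 4, and with the length trend removed (adjusted p = 0.153).

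Of 7 mitoribosomal subunits whose symbols do not follow the pattern, 1 rose and 2 fell with TAC and 4 rose with THZ1 in TAC. Of all genes tested 21.4% rose and 23.6% fell with TAC, so 1 and 2 of 7 were near the shares among all genes. With THZ1 in TAC 15.1% of all genes tested rose. Mrp63, now named Mrpl57, rose with TAC by 0.26 on the log2 scale (limma adjusted p = 0.0236), while Ptcd3 and Dap3, both small-subunit proteins, fell by 0.34 and 0.28 (limma adjusted p = 0.00319 and 0.00383). In the lists of genes that build and serve the mitoribosome, more genes fell than rose with TAC, beside the same 21.4% and 23.6% of all genes. Of 23 genes for assembly and rRNA modification 1 rose (Trub2) and 12 fell, among them Mrm1, an rRNA methyltransferase, by 0.57 on the log2 scale, and Gtpbp5, an assembly GTPase, by 0.50 (limma adjusted p = 0.00757 and 0.000138). Of 14 translation factors and mRNA regulators 9 fell, among them Lrpprc, which stabilizes mitochondrial mRNAs, by 0.68 on the log2 scale, and Gfm1, an elongation factor, by 0.49 (limma adjusted p = 2.76e-05 and 0.0002). Of 20 mitochondrial aminoacyl-tRNA synthetases and related enzymes 14 fell, among them Pet112l, now named Gatb, and Sars2, the seryl-tRNA synthetase, by 0.49 and 0.44 on the log2 scale (limma adjusted p = 0.00043 and 0.00114). With THZ1 in TAC hearts 13 of 23, 8 of 14 and 11 of 20 of these genes rose, beside 15.1% of all genes tested. The aminoacyl-tRNA synthetase Sars2 starts back to back with the member Mrps12.

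The larger families that frame the mitoribosome had opposite balances of calls with TAC. Among all genes tested, 21.4% rose and 23.6% fell with TAC, and 15.1% rose with THZ1 in TAC. Of 77 nuclear-encoded respiratory chain subunits 2 rose and 25 fell with TAC, with a median log2 fold change of -0.24, and 66 rose with THZ1 in TAC hearts, with a median of 0.43. With the length trend removed, 1 rose and 64 fell with TAC, with a median of -0.39, 61 rose with THZ1 in TAC, and 14 were lower in TAC-THZ1 than in Sham-THZ1, where 5 were higher and 2 lower without the correction. Sdha, a succinate dehydrogenase subunit, and Ndufs1, a complex I subunit, fell the most, by 0.81 and 0.73 on the log2 scale (limma adjusted p = 1e-05 and 1.15e-05). Cox8a and Cox6a1, cytochrome c oxidase subunits, were those that rose with TAC, by 0.36 and 0.29 on the log2 scale (limma adjusted p = 0.0195 and 0.0187). Of 78 cytosolic ribosomal proteins 61 rose with TAC, with a median log2 fold change of 0.40, and 2 rose with THZ1 in TAC, with a median of 0.14. With the length trend removed, 49 rose and 1 fell with TAC (median 0.25), and 1 rose and 3 fell with THZ1 in TAC (median -0.02). Their sums in TAC-Veh were 173.4%, 131.1%, 134.2% and 97.0% of the Sham-Veh mean, so replicate 4 showed no rise. Among genes with a longest transcript of at most 2000 bases, 29.3% rose with TAC. Rpl3 and Rpl39 had the largest log2 fold changes with TAC, at 1.16 and 0.84 (limma adjusted p = 0.00011 and 0.00121). Against Sham-THZ1, 75 of the 78 were higher in TAC-THZ1, and 36 with the length trend removed. Higher in that comparison were 11.4% of all genes tested, and 6.71% with the trend removed. Among genes with a longest transcript of at most 2000 bases 26.4% were higher. The members lay between both families, with medians of -0.02 with TAC and 0.27 with THZ1 in TAC. These comparisons of lists are by counts and medians and were not tested.

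**Figure D5:**
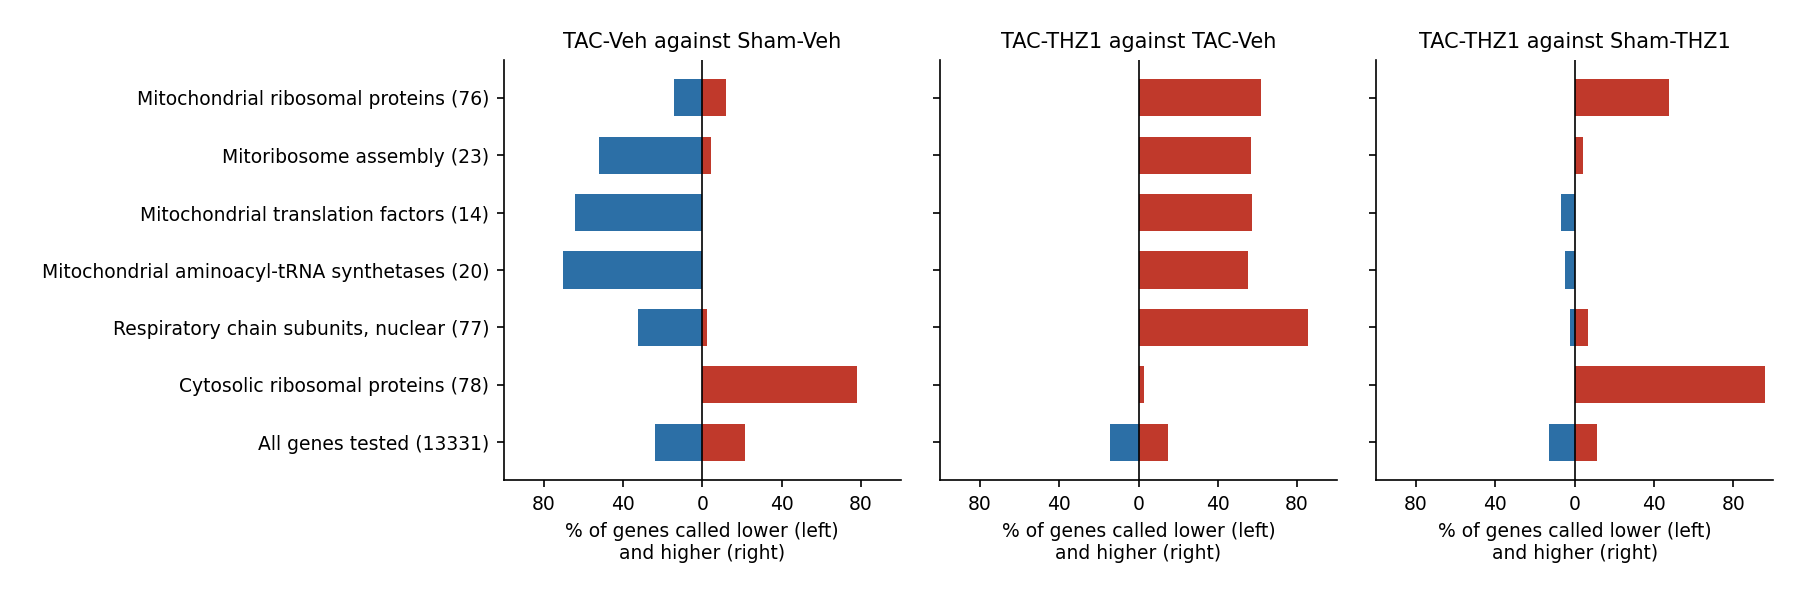
Percentage of each gene list called lower (blue, to the left of 0) and higher (red, to the right) at an adjusted p under 0.05 in 3 comparisons, with the number of genes tested in brackets and all 13331 genes tested in the lowest row. The mitochondrial ribosomal proteins are split in TAC-Veh against Sham-Veh (11.8% higher, 14.5% lower) and rise in TAC-THZ1 against TAC-Veh (61.8%).

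Cell type markers also moved between the groups. Among all genes tested, 21.4% rose and 23.6% fell with TAC, and 15.1% rose and 14.2% fell with THZ1 in TAC. In TAC-THZ1 against Sham-THZ1, 11.4% were higher and 12.8% lower. As for the ventricle label, the ventricular marker Myl2 had a mean of 221125 normalized counts in Sham-Veh, and the atrial genes Myl7 and Sln had means of 0.27 and 0.29 there. With Myl4, the other atrial gene listed, the atrial sum had means of 34.3 normalized counts in Sham-Veh and 43.1 in Sham-THZ1. It had means of 51.3 in TAC-Veh, where replicate 1 had 82.3, and 32.9 in TAC-THZ1. All 9 cardiomyocyte markers were read, 5 fell with TAC and 6 rose with THZ1 in TAC. Their summed level ran from 53.2% to 77.0% of the Sham-Veh mean in TAC-Veh and from 86.7% to 106.3% in TAC-THZ1. Of 7 fibroblast markers 6 rose with TAC and 6 fell with THZ1 in TAC, their sum running from 244.6% to 538.2% in TAC-Veh and from 101.9% to 145.9% in TAC-THZ1. Of 4 neutrophil markers 3 passed the filter and 2 rose with THZ1 in TAC, with sums of 17715%, 2223%, 7335% and 357.4% of the Sham-Veh mean in the 4 TAC-THZ1 libraries, and the lineage marker Ly6g had a mean of 3.9 normalized counts there. The same replicates 1 and 3 of TAC-THZ1 had erythroid sums of 461.2% and 268.8% and macrophage sums of 192.8% and 143.9%, against 105.2% and 132.7%, and 96.7% and 111.3%, in replicates 2 and 4. In TAC-THZ1 against Sham-THZ1, 4 of 6 endothelial markers were lower and 1 higher, with a median log2 fold change of -0.35, and 3 of 6 smooth muscle and pericyte markers were lower, with a median of -0.45. Without TAC-THZ1 replicates 1 and 3, which had the highest neutrophil sums, 34 members rose in TAC-THZ1 against TAC-Veh, 0 fell, and the median was 0.28. The part of these marker lists in the members' changes was not tested.

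Promoters, which the choice by name did not use, were searched for short motifs. RefSeq promoter windows on build GRCm38.p6, from 250 bases before to 50 after the start, were matched by symbol for 67 of the 76. CCGGAAG, the core that ETS factors such as GABP bind, was found on either strand for 35.8% of the 67 genes, against 18.6% of the 9468 tested genes with a window and 9.93% of all 27025 genes. AAGATGGC (YY1) was found for 17.9%, 4.85% and 3.19% of these sets. The NRF1 palindrome with its base 5 free was found for 17.9%, 10.9% and 5.19%, and these matches include those of the full palindrome, found for 4.48%, 2.25% and 1.07%. GGGCGG (SP1) was found for 49.3%, 68.0% and 38.2%, CACGTG (E-box) for 7.46%, 11.7% and 8.09%, and TCAAGGTCA (ERR) for 0%, 0.349% and 0.466%. Of the 24 members with the ETS core 5 rose and 0 fell with TAC, and of the 43 without it 2 rose and 10 fell, with median log2 fold changes of 0.04 and -0.08. Of all genes tested 21.4% rose and 23.6% fell. The 5 of 24 that rose and the 10 of 43 that fell were near these shares. The 0 of 24 that fell and the 2 of 43 that rose were below them. With THZ1 in TAC, 10 of 24 and 32 of 43 rose, beside 15.1% of all genes tested. A match is a run of letters and no evidence of binding, and the split was not tested.

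The 150 bases before the start are shown for the named members that had an NRF1, ETS or YY1 match there and no stretch shared with an annotated coding transcript, in all 5 genes, 5' to 3' on the gene's strand with the matches in capitals. Mrpl45 (chr11:97315566-97315715, plus strand) and Mrpl17 (chr7:105811088-105811237, minus strand) hold relaxed NRF1 matches.
Mrpl45: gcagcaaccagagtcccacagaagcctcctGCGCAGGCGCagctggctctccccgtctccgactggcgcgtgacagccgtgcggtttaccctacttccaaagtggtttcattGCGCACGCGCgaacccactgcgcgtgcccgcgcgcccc
Mrpl17: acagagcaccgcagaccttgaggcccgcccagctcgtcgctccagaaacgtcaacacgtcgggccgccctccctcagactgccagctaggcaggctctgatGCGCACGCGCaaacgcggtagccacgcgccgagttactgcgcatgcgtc
Mrpl45 fell with TAC and rose with THZ1 in TAC, whereas Mrpl17 gave 0.13 and 0.05 on the log2 scale in those comparisons (limma adjusted p = 0.0811 and 0.573).

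The other 3 hold the ETS core, on either strand. They are Mrpl52 (chr14:54426759-54426908, plus strand), Mrps18a (chr17:46110854-46111003, plus strand) and Mrps22 (chr9:98601680-98601829, minus strand).
Mrpl52: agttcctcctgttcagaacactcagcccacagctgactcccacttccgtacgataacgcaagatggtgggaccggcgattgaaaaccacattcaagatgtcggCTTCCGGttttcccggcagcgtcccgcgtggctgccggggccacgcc
Mrps18a: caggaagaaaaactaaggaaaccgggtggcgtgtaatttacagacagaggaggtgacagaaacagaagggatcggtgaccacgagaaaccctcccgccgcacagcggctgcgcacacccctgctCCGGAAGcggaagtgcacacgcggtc
Mrps22: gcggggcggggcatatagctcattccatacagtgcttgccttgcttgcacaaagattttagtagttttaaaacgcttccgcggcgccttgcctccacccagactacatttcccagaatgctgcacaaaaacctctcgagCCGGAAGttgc
Mrpl52 rose with TAC and Mrps18a and Mrps22 did not pass the test there, while Mrps18a and Mrps22 rose with THZ1 in TAC.

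Many members also start back to back with another gene. A protein-coding gene on the other strand started within 1000 bases for 28 of 76 members (36.8%), against 15.2% of the genes tested. Reads were counted by strand, so such neighbors are separable. In 1 case, named after its values were seen, both genes are members. Mrps11 at chr7:85928005-85937875 on the plus strand and Mrpl46 at chr7:85920122-85928417 on the minus strand overlap by their starts. Their log2 fold changes were -0.12 and 0.07 with TAC (limma adjusted p = 0.306 and 0.588) and of 0.29 and 0.28 with THZ1 in TAC (limma adjusted p = 0.0252 and 0.0395).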

How the data were processed

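Poly(A) RNA libraries (stranded kit) of the 16 ventricle samples were aligned by the authors with TopHat2 2.1.1 to mm9 and counted per GENCODE gene with HTSeq using strand. The deposited values are a signal, counts divided by DESeq2 size factors, and low values are whole multiples of 1 read, from which reads were recovered (100% whole within 0.01 of a read; 21.4 to 35.8 M per library). No column was left unused. Genes reaching 10 normalized counts in 4 libraries (13331) entered limma 3.58.1 (R 4.3.3; lmFit and eBayes with trend) on log2(value + 1), with 1 mean per group over all libraries and Benjamini-Hochberg adjustment; fold changes are on that scale. DESeq2 1.42.0 and edgeR 4.0.16 on recovered reads, other scalings, filters and pseudocounts, 1 library left out at a time and the replicate block were alternatives. The scripts were tested on simulated data with the same spread in every group, which does not cover the larger spread among TAC-Veh libraries. All 22372 genes had names and lengths in GENCODE vM1 (NCBIM37). Replicate numbers did not pair samples. Named members were the 6 largest called changes per direction with TAC and with THZ1 in TAC, the 3 smallest p in the other comparisons, the 3 highest and lowest levels per kb, and short lists; in other lists the 2 largest called changes per direction with TAC. Members and lists were chosen with earlier results of these data known. List genes Noa1, Malsu1, Slirp and Tefm were not matched. Members without a matched promoter window were Mrpl4, Mrpl13, Mrpl15, Mrpl19, Mrpl38, Mrpl54, Mrps28, Mrps34 and Mrps35.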

Additional observations from a re-analysis of the deposited data

Results flagged for a closer look

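Dixon's test at the 95% level was run on the summed level of the members and on each named member in each group of 4, and 6 of 124 groups had a library that stood apart, about the 1 in 20 that chance gives. The summed level in Sham-Veh was 82839 normalized counts in replicate 3, against 80649 to 80784 in the others. Mrpl33 was at 1461 in TAC-THZ1 replicate 3, against 1687 to 1717. Mrpl45 was at 2008 in the same library, against 1498 to 1556. Mrpl18 was at 1913 in Sham-THZ1 replicate 4, against 2121 to 2150. Mrpl3 was at 1921 in Sham-THZ1 replicate 3, against 1787 to 1807. Mrps18a was at 1063 in Sham-Veh replicate 2, against 1146 to 1148.

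For 8 members the effect of THZ1 in TAC hearts differed from that in sham hearts by limma's interaction test. Of all genes tested 4.4% were called above 0 in it and 5.62% below. With 1 library left out the count of members ran from 1 to 36. The differences on the log2 scale were 0.62 for Mrps35, 0.53 for Mrpl45, 0.42 for Mrpl39, 0.36 for Mrpl50, 0.44 for Mrpl37, 0.48 for Mrpl18, 0.40 for Mrpl49 and 0.48 for Mrpl47, with limma adjusted p from 0.0165 to 0.049.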

How the results depend on the processing

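Of the 5 counts of members called, that with TAC (20) became 36 with the transcript length trend removed, 13 at an adjusted p under 0.01 and 0 at a log2 fold change of at least 1, and ran from 16 to 30 with 1 library left out. That with THZ1 in TAC (47) became 8 in the fit of those groups alone, 23 at an adjusted p under 0.01 and 0 at a log2 fold change of at least 0.89, and ran from 27 to 57. That against Sham-THZ1 (36) became 10 with the length trend removed, 10 without TAC-THZ1 replicates 1 and 3 and 12 at an adjusted p under 0.01, and ran from 18 to 41; it was 36 against Sham-Veh. The interaction (8) became 13 with quantile scaling, 25 with array weights, 16 by DESeq2 and 0 at an adjusted p under 0.01, and ran from 1 to 36. That in sham stayed 0, also with 1 library left out. The length trend, the Sham-Veh reference and leaving out those 2 libraries were chosen after seeing the data. Mrpl54 against Sham-THZ1 reversed to -0.027 with the length trend removed. The causes were not tested. Of 52 called values of named members, recomputed 1671 times in all, 140 lost the call, and the direction changed in that case only.

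Replicate numbers were not found to pair the samples: of 24 same-numbered pairs 2 had a correlation of deviations over 0.1 (range -0.431 to 0.164), and in 7 the own number was best. With the replicate block the counts were 19 with TAC, 46 with THZ1 in TAC, 0 in sham, 35 against Sham-THZ1 and 9 for the interaction.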

Other observations

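Lists of genes that act before the mitoribosome held more genes that fell than rose with TAC. Among all genes tested, 21.4% rose and 23.6% fell with TAC, and 15.1% rose and 14.2% fell with THZ1 in TAC. Of 8 genes for transcription and replication of mitochondrial DNA 4 fell by limma, among them Peo1, the helicase now named Twnk, by 0.57 on the log2 scale (adjusted p = 0.000809), and Polrmt, the mitochondrial RNA polymerase, by 0.50 (adjusted p = 0.000514), and 4 rose with THZ1 in TAC. Of 8 transcription factors and coactivators of mitochondrial genes 5 fell with TAC, among them Ppargc1b by 1.3 and Ppargc1a by 0.79 on the log2 scale (limma adjusted p = 0.000333 and 0.011). Myc rose by 1.04 (limma adjusted p = 0.00234). With THZ1 in TAC, Ppargc1a had a log2 fold change of 0.70 (limma adjusted p = 0.0307) and Myc of -0.74 (limma adjusted p = 0.0295).

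Of the mRNAs that mitoribosomes translate, few passed the same test, by which 21.4% of all genes tested rose and 23.6% fell with TAC. Of 12 mitochondrially encoded mRNAs tested, 1 rose (mt-Atp8, 0.77 on the log2 scale, limma adjusted p = 0.0348) and 2 fell with TAC (mt-Nd6 by 1.05 and mt-Atp6 by 0.47, limma adjusted p = 0.000188 and 0.0398). In that comparison edgeR called 3 and DESeq2 5 on recovered reads, and with the length trend removed limma called 6 lower, with a median of -0.43, and mt-Atp8 was no longer called. With THZ1 in TAC their median log2 fold change was 0.35, and 0 were called by limma (1 at an unadjusted p under 0.05), 1 by edgeR and 8 by DESeq2 on recovered reads. In Sham-THZ1 against Sham-Veh limma called 1 of the 12 lower, where 0.045% of all genes tested fell. The lowest log2 fold change of the 12 there was -1.24.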
